A study of Mus musculus with 18 samples.

Results

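The genes described are 10 growth factor ligands: epiregulin (Ereg), heparin-binding EGF-like growth factor (Hbegf), transforming growth factor alpha (Tgfa), betacellulin (Btc), epidermal growth factor (Egf), neuregulin 1 (Nrg1), hepatocyte growth factor (Hgf), the fibroblast growth factors Fgf7 and Fgf10, and insulin-like growth factor 1 (Igf1). They were listed by name, with earlier results of these data known, and are 10 of the 18193 genes tested. They are read by 20 of the 34945 probe sets that carry a single gene symbol. For each gene the probe set with the highest mean over the arrays was used, and its other probe sets served as a check. Levels are log2 signals, so a difference of 1 is a 2-fold difference, and levels of different probe sets are not compared with each other.

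The series profiled mouse lung on Affymetrix 3′ expression arrays. Control samples were lung of vehicle control B6C3F1/N mice (the hybrid strain of the study's title), and spontaneous tumors were lung tumors titled SPONT. Treated tumors came from mice that had inhaled antimony trioxide, an aerosol given at 0, 3, 10 or 30 mg/m3. The title of every sample, controls included, carries the word antimony. Apart from that word, the labels of the spontaneous tumors name no exposure. Mice entered the study at 5 to 6 weeks of age, in groups of 60 males and 60 females, and exposure lasted 6 hours plus 12 minutes a day on 5 days a week for up to 105 weeks. The labels give no animal, age at sampling, sex or exposure level for a sample, and the p-values therefore reflect how much these particular samples differ, which may in part be technical.

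The arrays of control 5 and of spontaneous tumors 5 and 6 did not resemble the rest. Each had a median Pearson correlation of 0.299 to 0.473 with all others, against 0.919 to 0.973 for the 15 arrays kept, and their log2 values had a standard deviation of 1.27 to 1.48 against 2.35 to 2.45. They were left out, which leaves 5 control, 4 spontaneous tumor and 6 treated tumor arrays, and values over all 18 arrays are given for the ligands and the gene lists. No pair of arrays shared more than 32 of 45101 values. Lung was recognisable in all groups by surfactant genes: 8 of 9 measured alveolar type 2 cell markers were higher in each kind of tumor than in control, with a summed signal of 52300 to 75900 in control, 96300 to 106000 in spontaneous and 94200 to 101000 in treated tumors. Over all 18 arrays limma called 0 of these 9 markers in spontaneous and 1, higher, in treated tumors, with 2 and 7 at an unadjusted p under 0.05.

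Growth factors of the EGF family are made as membrane-bound precursors, released by proteases and read by the ERBB receptor tyrosine kinases, which signal through RAS and the MAP kinase ERK. Fgf7 and Fgf10 are made by mesenchymal cells and act on the epithelial form of the FGF receptor Fgfr2, and Fgf10 is required for branching of the embryonic lung. Hgf, also mesenchymal, is secreted as an inactive precursor and, once cut, acts on the receptor Met, while Igf1 acts on Igf1r and is held by IGF binding proteins.

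The promoter windows of Fgf7, Fgf10 and Hgf are shown because these genes were lower together in both kinds of tumor, and that of Egf because its level rose in both. Each runs from 250 bases before to 50 bases after the transcription start in RefSeq on GRCm38.p6, 5′ to 3′ on the gene's strand, and capitals mark the motif matches described next. Of the 10 ligands, 7 had a window in the RefSeq table. Ereg, Hbegf and Nrg1 had none, so Nrg1, also lower in both, and Ereg, also higher in both, could not be shown. For Egf and Hgf, with more than 1 listed start, the outermost was taken.
Fgf7 chr2:126034408-126034707 (+ strand): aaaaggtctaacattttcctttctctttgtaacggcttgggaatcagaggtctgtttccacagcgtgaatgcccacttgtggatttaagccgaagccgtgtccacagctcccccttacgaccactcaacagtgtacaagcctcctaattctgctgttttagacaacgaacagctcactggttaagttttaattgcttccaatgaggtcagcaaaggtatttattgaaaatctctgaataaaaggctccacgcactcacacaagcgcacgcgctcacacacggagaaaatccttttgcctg
Fgf10 chr13:118714449-118714748 (+ strand): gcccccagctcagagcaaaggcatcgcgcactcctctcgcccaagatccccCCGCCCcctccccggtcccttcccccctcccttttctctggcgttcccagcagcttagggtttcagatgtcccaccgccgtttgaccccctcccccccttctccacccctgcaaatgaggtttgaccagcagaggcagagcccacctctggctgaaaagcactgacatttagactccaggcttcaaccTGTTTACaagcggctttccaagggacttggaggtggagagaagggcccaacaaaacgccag
Hgf chr5:16553245-16553544 (+ strand): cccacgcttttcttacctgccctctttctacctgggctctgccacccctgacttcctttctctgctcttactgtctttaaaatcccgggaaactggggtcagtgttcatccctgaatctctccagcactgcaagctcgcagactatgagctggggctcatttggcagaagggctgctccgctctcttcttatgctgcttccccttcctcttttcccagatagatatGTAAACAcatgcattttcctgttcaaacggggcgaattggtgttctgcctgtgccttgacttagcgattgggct
Egf chr3:129755273-129755572 (- strand): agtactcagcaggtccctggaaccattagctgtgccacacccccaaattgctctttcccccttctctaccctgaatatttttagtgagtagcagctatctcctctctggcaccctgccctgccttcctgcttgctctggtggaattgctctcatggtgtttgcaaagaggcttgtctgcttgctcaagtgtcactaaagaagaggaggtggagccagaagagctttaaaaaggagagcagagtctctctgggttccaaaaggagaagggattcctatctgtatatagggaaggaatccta
Both strands were searched for a TATA box (TATAAA), a GC box (GGGCGG), an AP-1 site (TGANTCA), a cAMP response element (TGACGTCA), an ETS site (CCGGAAG), a forkhead site (TGTTTAC) and a CArG box, which do not overlap one another in these windows. The forkhead letters occur in the Hgf window from position -24 and in the Fgf10 window from position -11, counted from the transcription start, and in 3.65% of 32851 windows of the same length. The Fgf10 window also holds a GC box from position -199, as do 35.7% of all windows. The Fgf7 and Egf windows hold none of these letters, and a match or its absence says only which letters are there.

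Against control lung, 6 of the 10 ligands were called in spontaneous tumors by limma at an adjusted p under 0.05, as were 33.0% of all genes tested. Ereg and Egf were higher and Nrg1, Hgf, Fgf7 and Fgf10 lower, where 3662 of all genes were higher and 2350 lower. In treated tumors 7 of the 10 were called, against 38.8% of all genes. Tgfa joined Ereg and Egf among the 3 higher ligands and the same 4 were lower, where 4330 of all genes were higher and 2735 lower. The groups did not overlap for 4 ligands in spontaneous tumors (Egf, Hgf, Fgf7 and Fgf10), against 29.3% of all genes, and for 3 in treated tumors (Egf, Fgf7 and Fgf10), against 24.5%. Between treated and spontaneous tumors 0 of the 10 were called by limma, 0 had an unadjusted p under 0.05 and 0 had one under 0.05 in the exact permutation test, against 0.0550% of all genes called and 8.64% with an unadjusted p under 0.05. Over all 18 arrays, the calls in spontaneous tumors came down to Fgf7, beside 4.16% of all genes, and those in treated tumors to Ereg, Egf, Fgf7 and Fgf10, beside 7.42% of all genes. The median log2 difference of the 10 ligands was 0.26 in spontaneous and 0.52 in treated tumors, with 0.12 and 0.089 over all genes.

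**Figure D1:**
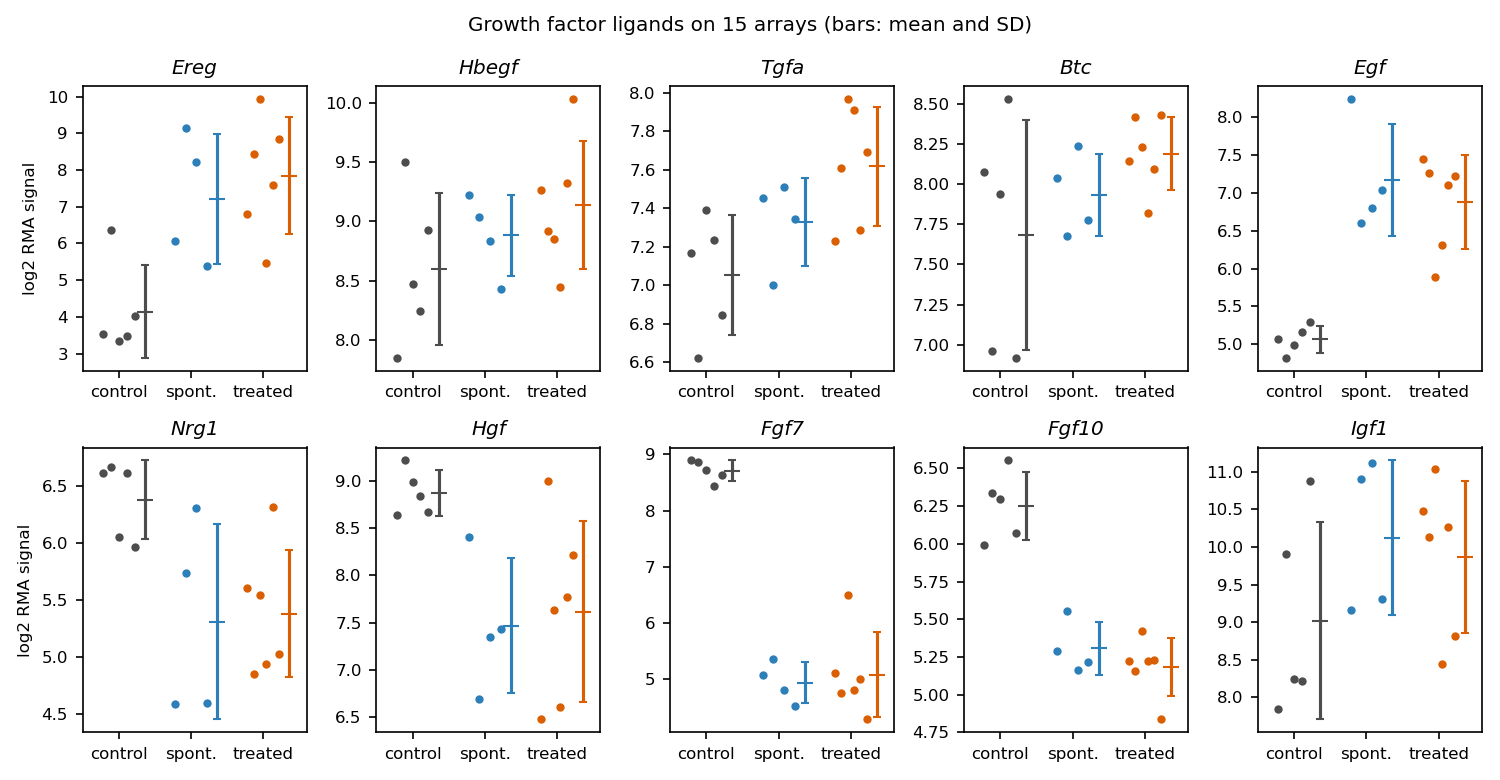
Log2 signal of each ligand (vertical axes) on each of the 15 arrays, by group (control, spontaneous tumor, treated tumor); points are arrays, and bars are the group mean and SD. Fgf7 and Fgf10 lie lower on every tumor array than on any control array, Egf lies higher on every tumor array, and Igf1 spreads over 7.85 to 10.88 within the controls.

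Among the ligands of the epidermal growth factor receptor, Ereg had the largest rise of the 10 genes. Its level was 3.54, 6.36, 3.35, 3.47 and 4.01 in the 5 controls, numbered 1, 2, 3, 4 and 6. In spontaneous tumors 1 to 4 it was 6.07, 9.14, 8.22 and 5.38, and in the 6 treated tumors it ran from 5.46 through a median of 8.02 to 9.94. Control 2 lay above the other 4 controls and within the range of the tumors, so the groups overlapped. Ereg was 8.33-fold higher in spontaneous tumors (log2 3.06 ± 0.92 SE, limma adjusted p = 0.0192) and 13.0-fold higher in treated tumors (3.70 ± 0.83, adjusted p = 0.00253). The call in spontaneous tumors rested on single arrays: without spontaneous tumor 2 the difference was 2.42 (limma adjusted p = 0.068), and without spontaneous tumor 3 it was 2.72 (adjusted p = 0.0583). Over all 18 arrays the differences were 2.29 (limma adjusted p = 0.183) in spontaneous and 3.09 (adjusted p = 0.0316) in treated tumors.

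Egf, the founding ligand of the family, was higher on every tumor array than on any control array. It measured 5.06, 4.82, 5.00, 5.16 and 5.30 in the controls and 8.24, 6.60, 6.81 and 7.03 in the spontaneous tumors. The treated tumors ranged from 5.89 through a median of 7.17 to 7.44. Neither kind of tumor overlapped control, with exact 2-sided permutation p of 0.00794 and 0.00433 for spontaneous and treated tumors. The rise was 4.29-fold in spontaneous tumors (log2 2.10 ± 0.34 SE, limma adjusted p = 0.000261) and 3.50-fold in treated tumors (1.81 ± 0.31, adjusted p = 0.000281). Over 18 arrays, with control 5 at 7.22 and spontaneous tumors 5 and 6 at 6.32 and 6.37, it was 1.47 (limma adjusted p = 0.0635) and 1.45 (adjusted p = 0.0459). The alveolar type 2 markers given above were higher in the same comparisons over 15 arrays but mostly not called over 18, and their part in the Egf result was not tested.

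Tgfa, another ligand of the epidermal growth factor receptor, changed little. Its controls measured 7.17, 6.62, 7.39, 7.24 and 6.84, its spontaneous tumors 7.45, 7.0, 7.51 and 7.34, and its treated tumors ranged from 7.23 through 7.65 to 7.97. The treated tumors overlapped only the upper part of the controls, and the difference was called there (1.48-fold, log2 0.57 ± 0.17 SE, limma adjusted p = 0.0158) but not in spontaneous tumors (0.28 ± 0.19, adjusted p = 0.285). The difference between the 2 kinds of tumor was 0.29, with a 95% interval of -0.10 to 0.68. The other 2 Tgfa probe sets were called in both comparisons, by 0.42 and 0.34 in spontaneous and 0.35 and 0.36 in treated tumors (limma adjusted p from 0.00558 to 0.0478). Over 18 arrays the Tgfa difference in treated tumors was 0.64 (limma adjusted p = 0.173).

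Hbegf and Btc, which bind the epidermal growth factor receptor and ERBB4, were not called with their chosen probe sets. Hbegf ranged from 7.85 to 9.5 in control, 8.43 to 9.22 in spontaneous and 8.45 to 10.03 in treated tumors, and Btc from 6.92 to 8.53, 7.68 to 8.24 and 7.82 to 8.43. The tumors overlapped the control range for both. Their differences in treated tumors were 0.54 ± 0.30 SE for Hbegf (limma adjusted p = 0.167) and 0.51 ± 0.26 for Btc (adjusted p = 0.133). The second probe set of each gave a larger difference that was called in treated tumors, 1.01 for Hbegf (limma adjusted p = 0.0265) and 0.82 for Btc (adjusted p = 0.0328). Single controls decided the chosen probe sets as well: without control 2 Hbegf was called in treated tumors (0.76, limma adjusted p = 0.0424), and without control 4 Btc was (0.72, adjusted p = 0.0252). Over 18 arrays neither was called: Hbegf turned to -0.20 (limma adjusted p = 0.88) in spontaneous tumors and measured 0.59 (adjusted p = 0.479) in treated tumors, and Btc measured 0.34 (adjusted p = 0.71) and 0.52 (adjusted p = 0.366).

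Nrg1, a ligand of ERBB3 and ERBB4, was lower in tumors. It measured 6.62, 6.67, 6.06, 6.62 and 5.96 in the controls and 4.59, 5.74, 6.31 and 4.60 in the spontaneous tumors, and ranged from 4.86 through 5.29 to 6.32 in the treated tumors. Spontaneous tumor 3 and treated tumor 5 lay within the control range. The fall was 2.11-fold in spontaneous (log2 -1.08 ± 0.36 SE, limma adjusted p = 0.0332) and 2.00-fold in treated tumors (-1.0 ± 0.33, adjusted p = 0.0243). Both calls were near the threshold: the one in spontaneous tumors was lost without control 1, 2 or 4 or spontaneous tumor 1 or 4 (-0.84 to -1.02, limma adjusted p up to 0.114). The one in treated tumors was lost without control 1, 2 or 4 or treated tumor 2 or 6 (-0.90 to -0.95, limma adjusted p up to 0.057). Over 18 arrays neither was called, with -0.76 (limma adjusted p = 0.361) and -0.87 (adjusted p = 0.184).

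In order on chromosome 5 the protein-coding genes Mthfd2l, Epgn, Ereg, Areg, Btc and Parm1 follow one another in the RefSeq annotation, so Ereg and Btc are near neighbours. Ereg rose while its neighbours Epgn, another ERBB ligand (0.07 and 0.22), and Btc (0.25 and 0.51, with the chosen probe set) were not called in spontaneous and treated tumors. The second Btc probe set was called in treated tumors, as given above. Areg was not analysed here. Of the 4 measured ERBB ligands outside the 10, only Nrg4, a ligand of ERBB4, was called, higher by 0.82 ± 0.29 SE (limma adjusted p = 0.0431) in spontaneous and 0.71 (adjusted p = 0.045) in treated tumors. Over 18 arrays 0 of the 4 were called by limma, and 0 had an unadjusted p under 0.05.

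Of the 4 ERBB receptors, 2 were higher in both kinds of tumor. Erbb3, a receptor of neuregulins, rose by 1.19 ± 0.19 SE in spontaneous (limma adjusted p = 0.000239) and 1.36 ± 0.17 in treated tumors (adjusted p = 2.16e-05), and Erbb2, the partner that binds no ligand itself, by 0.57 (adjusted p = 0.0131) and 0.48 (adjusted p = 0.0153). Egfr was slightly lower, by -0.28 (limma adjusted p = 0.072) and -0.30 (adjusted p = 0.0288), and Erbb4 measured 0.07 and -0.01 and was not called. The Erbb3 difference in spontaneous tumors was gone over 18 arrays (-0.000278), where 0 of the 4 receptors were called by limma in either comparison and 0 and 2 had an unadjusted p under 0.05.
Among 8 genes that release the ligands or regulate the receptors, 2 were higher in both comparisons. Errfi1, a feedback inhibitor of the epidermal growth factor receptor, rose by 0.79 (limma adjusted p = 0.0105) and 1.04 (adjusted p = 0.000626), and Rhbdf2, which carries the shedding protease Adam17 to the cell surface, by 0.45 (adjusted p = 0.0349) and 0.44 (adjusted p = 0.0223). Adam17 and Adam10, the proteases that release these ligands, were not called. Lrig3, which belongs to a family of receptor regulators, was lower in treated tumors (-0.82, limma adjusted p = 0.0115) and measured -0.60 (adjusted p = 0.0911) in spontaneous tumors. Over 18 arrays limma called 0 of the 8 in spontaneous tumors and 1, higher, in treated tumors, with 1 and 2 at an unadjusted p under 0.05.

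Fgf7 fell the most of the 10 ligands and was the only one called in both kinds of tumor with and without the 3 poor arrays. It measured 8.89, 8.86, 8.73, 8.44 and 8.63 in the controls and 5.07, 5.36, 4.81 and 4.52 in the spontaneous tumors. The treated tumors ranged from 4.28 through a median of 4.91 to 6.50, with treated tumor 3 at the top. No tumor reached any control, and the exact 2-sided permutation p, 0.00794 and 0.00216, was the smallest these group sizes allow. The fall was 13.7-fold in spontaneous (log2 -3.77 ± 0.33 SE, limma adjusted p = 1.03e-06) and 12.4-fold in treated tumors (-3.63 ± 0.29, adjusted p = 2.96e-07), and the second Fgf7 probe set gave -3.37 and -3.36. Over 18 arrays, with control 5 at 6.14 and spontaneous tumors 5 and 6 at 6.64 and 4.74, the differences were -3.09 (limma adjusted p = 0.000982) and -3.20 (adjusted p = 0.000352).

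Fgf10 was lower by a smaller amount with little spread, at a low level: its mean over the 15 arrays, 5.57, lay below the median of all genes tested. It measured 5.99, 6.34, 6.30, 6.55 and 6.07 in the controls and 5.29, 5.56, 5.16 and 5.21 in the spontaneous tumors, and ranged from 4.84 through 5.23 to 5.42 in the treated tumors. Again no tumor reached a control. The fall was 1.92-fold in spontaneous (log2 -0.94 ± 0.14 SE, limma adjusted p = 0.00013) and 2.10-fold in treated tumors (-1.07 ± 0.13, adjusted p = 1.18e-05). Over 18 arrays it was -0.66 (limma adjusted p = 0.45) and -1.28 (adjusted p = 0.0301), with the left-out control 5 at 7.50 and spontaneous tumors 5 and 6 at 7.09 and 6.48, above most of the arrays kept.

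Hgf was lower on most tumor arrays but not on all. It measured 8.64, 9.22, 8.99, 8.84 and 8.67 in the controls and 8.41, 6.69, 7.35 and 7.43 in the spontaneous tumors, and ranged from 6.48 through 7.70 to 9.0 in the treated tumors. The spontaneous tumors all lay below the controls, while treated tumor 2, at 9.0, lay among them. The fall was 2.64-fold in spontaneous (log2 -1.40 ± 0.44 SE, limma adjusted p = 0.0238) and 2.39-fold in treated tumors (-1.25 ± 0.40, adjusted p = 0.0211). The call in spontaneous tumors was lost without spontaneous tumor 2, 3 or 4 (-1.14, -1.36 and -1.39, limma adjusted p up to 0.0788). The second Hgf probe set gave -1.31 (limma adjusted p = 0.006) and -1.25 (adjusted p = 0.00321), and the third -0.57 (adjusted p = 0.109) and -0.64 (adjusted p = 0.041). Over 18 arrays the differences were -1.75 (limma adjusted p = 0.0799) and -0.95 (adjusted p = 0.373).

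Many but not all markers of stromal cells were lower in tumors, as these mesenchymal ligands were. Of 12 fibroblast markers, 7 were lower in each kind of tumor, among them the mesenchymal transcription factor Tcf21 (-4.95 and -4.62) and the matrix protein Mfap4 (-6.46 and -6.47). The collagen gene Col1a1 was higher in treated tumors (0.81, limma adjusted p = 0.0456) and measured 0.57 (adjusted p = 0.215) in spontaneous tumors. Col1a2, Col3a1, Lum and Pdgfrb were not called in either comparison. These genes and Col1a1 were named after their values were seen. Over 18 arrays 5 of the 12 were lower in each comparison. The summed linear signal of the 12 was 32200 to 44600 in control, 6070 to 12900 in spontaneous and 4880 to 18300 in treated tumors, and no marker reads 0 on this scale. Treated tumor 3, with the highest Fgf7 of the tumors, also had the highest fibroblast sum of the tumors, 18300. The same array had the highest endothelial (6900), mesothelial (5430) and neutrophil (5320) sums of the tumors, but not the highest smooth muscle sum (2410). Treated tumor 2 had the next highest fibroblast sum, 13600, with Fgf7 at 4.76. All 7 smooth muscle markers were lower in both comparisons, with sums of 6770 to 18600, 2120 to 3810 and 1800 to 3840 in control, spontaneous and treated samples. Endothelial markers were lower for 8 of 9 and 9 of 9, with sums of 20300 to 35400, 2960 to 6320 and 2900 to 6900. Over 18 arrays 4 of the 7 smooth muscle and 4 of the 9 endothelial markers were lower in each comparison. The part of these cells in the ligand results was not tested, and in bulk samples fewer cells of a type and less RNA per cell cannot be told apart.

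**Figure D2:**
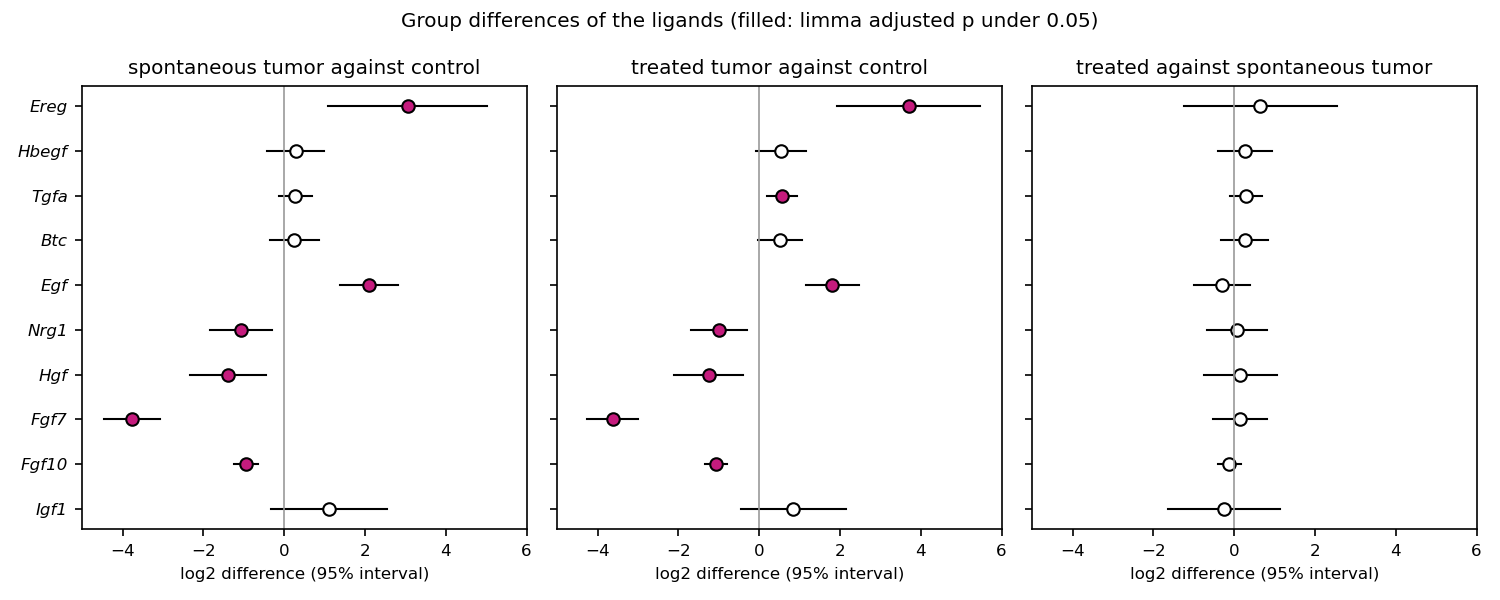
Log2 difference of each ligand (horizontal axes) for spontaneous tumors minus control, treated tumors minus control, and treated minus spontaneous tumors, from left to right; circles are limma estimates over 15 arrays, filled where called, and bars are 95% confidence intervals. The differences from control run from Fgf7 (-3.77 and -3.63) to Ereg (3.06 and 3.70), and every interval of the third panel includes 0.

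The receptors of these ligands were measured on the same arrays. Fgfr2, the receptor of Fgf7 and Fgf10, was higher in tumors, by 1.40 ± 0.18 SE (limma adjusted p = 4.37e-05) in spontaneous and 1.05 ± 0.17 (adjusted p = 0.00016) in treated tumors, and the array values used here do not separate its epithelial and mesenchymal forms. Of 8 FGF receptors and binding proteins, it was the 1 that rose, 3 fell in spontaneous and 4 in treated tumors. Those that fell in both were Fgfr3 (-1.32 and -1.28), Fgfr4 (-2.89 and -1.86) and Fgfbp1, a secreted carrier of FGFs (-2.39 and -1.84), with limma adjusted p of at most 0.00563. Fgfr1 was called in treated tumors (-0.88, limma adjusted p = 0.0213) but not in spontaneous tumors (-0.74, adjusted p = 0.0795). Over 18 arrays, Fgfr2 measured 0.87 (limma adjusted p = 0.771) in spontaneous tumors, and 2 of the 8 genes, both lower, were called there and 0 by limma in treated tumors, with 3 and 2 at an unadjusted p under 0.05.
Of 16 other FGF ligands, 2 rose in spontaneous tumors, Fgf5 (0.46, limma adjusted p = 0.0178) and Fgf17 (0.38, adjusted p = 0.0234). In treated tumors Fgf17 rose (0.51, limma adjusted p = 0.00139) and Fgf18, a ligand made in developing lung, fell (-1.42, adjusted p = 0.028), and over 18 arrays 0 of the 16 were called by limma in either comparison, with 1 in each at an unadjusted p under 0.05.

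Met, the receptor of Hgf, was higher by 1.36 ± 0.18 SE (limma adjusted p = 4.17e-05) in spontaneous and 1.19 ± 0.16 (adjusted p = 4.03e-05) in treated tumors, while Hgf itself was lower. Of 10 genes for the receptor, the proteases that cut Hgf, their inhibitors and the related genes Mst1 and Mst1r, 5 rose and 1 fell in each comparison. The proteases that rose were Hpn (hepsin, 2.16 ± 0.26 and 2.38, limma adjusted p = 2.15e-05 and 2.09e-06), St14 (matriptase, 0.81 and 0.95, adjusted p = 0.00259 and 0.000253) and Hgfac (HGF activator, 1.14 and 2.43, adjusted p = 0.0239 and 3.64e-05). Spint1, an inhibitor of these proteases, rose by 1.21 and 1.19 (limma adjusted p = 1.98e-05 and 5.63e-06), and Mst1, a ligand related to Hgf, fell (-1.05 and -0.69, adjusted p = 0.00209 and 0.0126). Over 18 arrays Met turned to -0.27 (limma adjusted p = 0.94) in spontaneous tumors, and 1 gene of the list was higher and 1 lower there, and 2 higher in treated tumors.

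**Figure D3:**
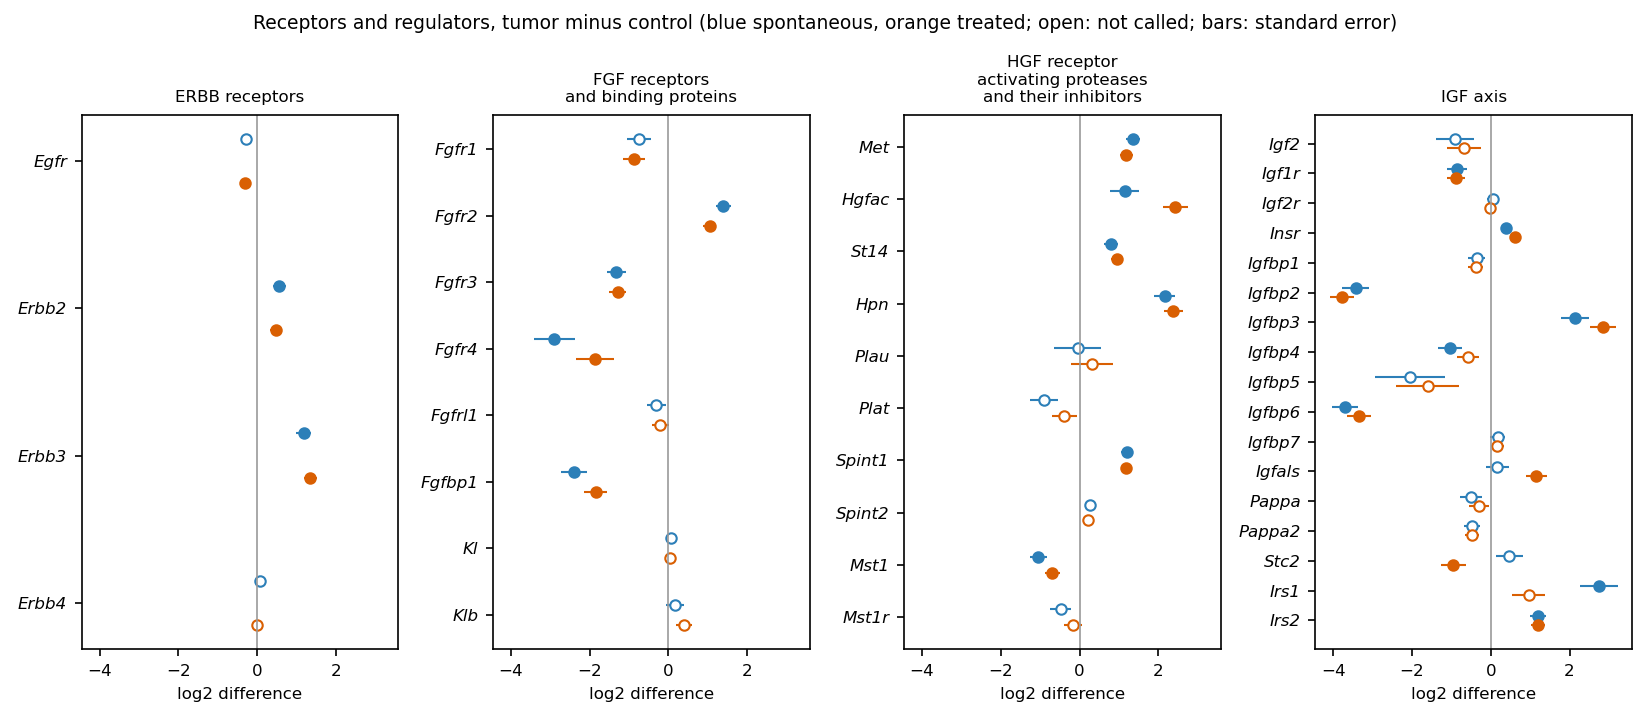
Log2 difference from control (horizontal axes) of ERBB receptors, FGF receptors and binding proteins, genes around the Hgf receptor and genes of the IGF axis, over 15 arrays; blue is spontaneous and orange treated tumors, filled circles are called, and bars are standard errors. Erbb3 (1.19 and 1.36), Fgfr2 (1.40 and 1.05) and Met (1.36 and 1.19) lie to the right of 0, and Igfbp2 (-3.43 and -3.78) lies far to the left.

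Igf1 was not called in either kind of tumor. It measured 7.85, 9.90, 8.24, 8.21 and 10.88 in the controls and 9.16, 10.90, 11.11 and 9.31 in the spontaneous tumors, and ranged from 8.44 through 10.2 to 11.03 in the treated tumors. Controls 2 and 6 lay among the tumors and the other 3 controls below all of them. The differences were 1.10 ± 0.68 SE (limma adjusted p = 0.23) and 0.84 ± 0.61 (adjusted p = 0.301), and those of its other 3 probe sets, 0.65 to 1.27, were not called either. Over 18 arrays Igf1 measured 0.28 (limma adjusted p = 0.894) and 0.73 (adjusted p = 0.614). Controls 2 and 6 also had the highest summed signal of 10 macrophage markers among the controls, 33000 and 44000 against 16800 to 20400 in controls 1, 3 and 4, with 23400 to 44900 in spontaneous and 23200 to 45900 in treated tumors. Of the 10 markers, 2 were higher in each kind of tumor and 1 was lower in treated tumors. Over 18 arrays 1 of the 10 was called, higher, in each comparison. Controls 2 and 6 were likewise the highest controls for neutrophil sums (4610 and 4600 against 1150 to 2000). The same held for T and NK cell (2310 and 1850 against 948 to 1150) and alveolar type 2 sums (72700 and 75900 against 52300 to 57800). It also held for fibroblast and mesothelial sums, but not for the other marker lists. The part of macrophages or other cells in the Igf1 values was not tested.

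Of 17 genes that hold, release or read IGF, 4 were higher, 4 lower and 9 not called in each comparison. The binding proteins Igfbp2 (-3.43 ± 0.34 SE and -3.78) and Igfbp6 (-3.70 and -3.35) were lower and Igfbp3 (2.14 and 2.86) was higher, with limma adjusted p of at most 0.000437. The receptor adaptor Irs2 rose by 1.20 and 1.21 (limma adjusted p = 0.000356 and 0.000101), and Irs1 rose in spontaneous tumors (2.75, adjusted p = 0.000442) and measured 0.96 (adjusted p = 0.0889) in treated tumors. Igf1r, the receptor of Igf1, named after its values were seen, was lower by -0.86 (limma adjusted p = 0.0184) and -0.88 (adjusted p = 0.00701). Over 18 arrays, 2 of the 17 were higher and 2 lower in spontaneous tumors, and 1 higher and 2 lower in treated tumors.

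**Figure D4:**
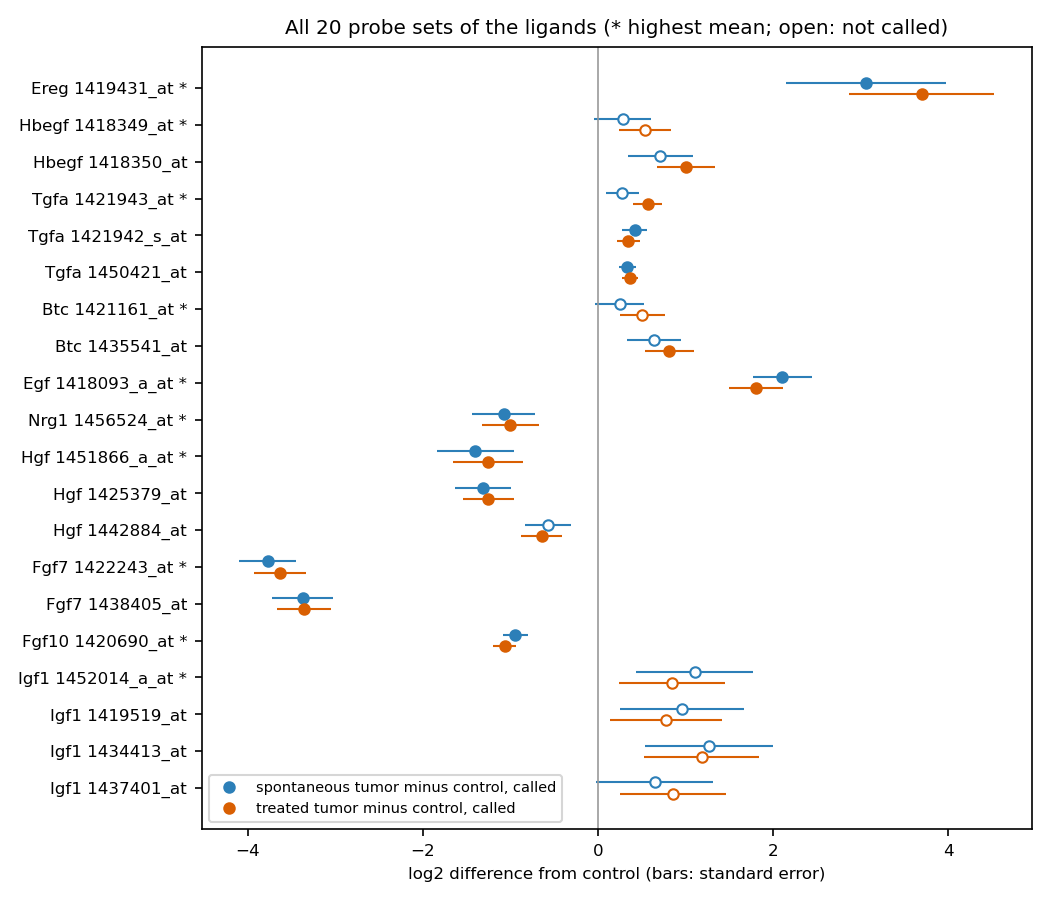
Log2 difference from control (horizontal axis) of each of the 20 probe sets of the 10 ligands, in spontaneous and treated tumors; points are limma estimates, and bars are standard errors, with open circles not called. Probe sets of one gene lie on the same side of 0, for example -3.77 and -3.37 for Fgf7 in spontaneous tumors.

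Among themselves the 10 ligands did not follow a common course over the 15 arrays. After each was centred on its own mean, the closest pair was Tgfa and Btc, with a root mean square difference of 0.344 log2, then Nrg1 and Fgf10 with 0.524, and the farthest was Ereg and Fgf7 with 3.59. These distances grow with a gene's own spread, which was 2.22 for Ereg, 1.87 for Fgf7 and 1.14 for Igf1 down to 0.368 for Tgfa as a standard deviation over the 15 arrays.

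Of all genes, those closest to Fgf7 by this distance were Akap12, a scaffold of protein kinase A (0.310), and Foxf1, a mesenchymal forkhead transcription factor of the lung (0.338), with differences of -4.30 and -3.54 in spontaneous tumors. Closest to Egf were Lipm, a lipase (0.253), and Cited2, a transcriptional co-regulator (0.296). Closest to Igf1 were Cd84 (0.456) and Cd300lf (0.463), both leukocyte surface receptors, and closest to Ereg were AA467197 (1.00) and Ivl, a cornified envelope protein (1.01). For Hgf they were Cstdc2 (0.420) and Arhgap32 (0.532), for Fgf10 Nxn (0.190) and Eps15 (0.191), and for Nrg1 Gnal (0.367) and Icosl (0.374). For Hbegf they were Il15 (0.267) and Manba (0.320), for Tgfa Zfp746 (0.176) and Pde8b (0.193), and for Btc Pde4d (0.296) and Gm36839 (0.304). All these distances are over 15 arrays that share the group differences, and are a description.

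**Figure D5:**
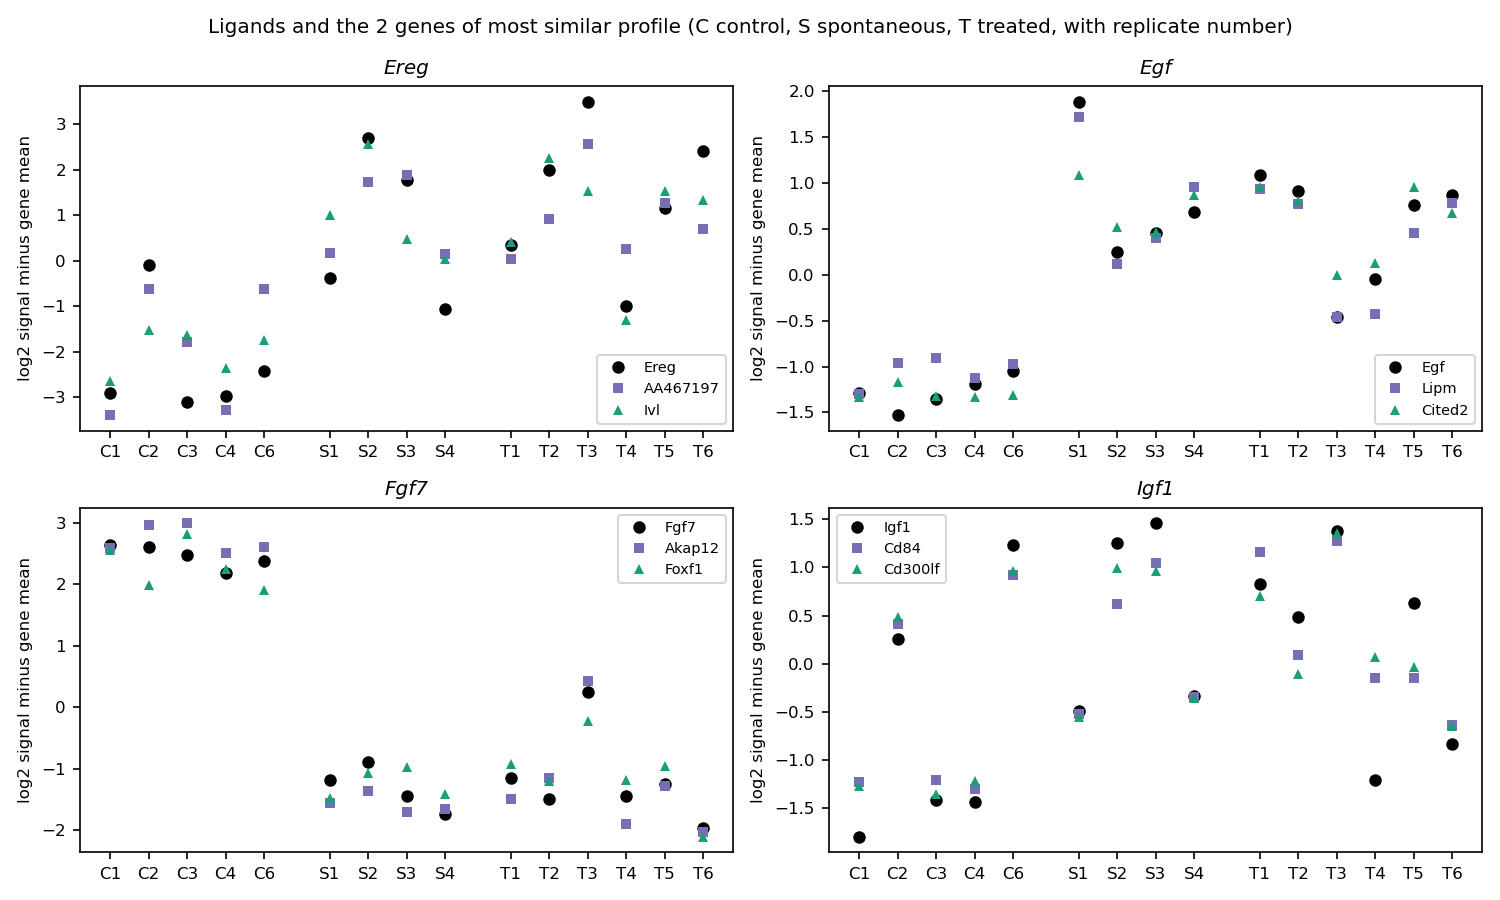
Log2 signal minus the gene's mean (vertical axes) for Ereg, Egf, Fgf7 and Igf1 and the 2 genes closest to each, on each of the 15 arrays (horizontal axis); circles are the ligand, squares and triangles the 2 other genes. Akap12 and Foxf1 follow Fgf7 with root mean square differences of 0.310 and 0.338, while the genes closest to Ereg differ from it by 1.00 and 1.01.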

How the data were processed

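The authors deposited log2 values made with RMA, per the submitters' processing notes, a method that subtracts background, brings arrays to a common distribution and combines the probes of a probe set. It compresses low signals, so their fold differences can be understated. Ereg, Tgfa, Egf, Nrg1, Fgf7 and Fgf10 had a mean below the median of all genes tested. The sources used here do not give its version or whether the 3 poor arrays entered it. Probe sets were named from the platform annotation: 34945 had 1 symbol, 932 several, 9160 none and 64 were array controls. The last 3 kinds were not tested.

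limma 3.58.1 (R 4.3.3) was fitted over 15 arrays with 1 mean per group. P-values were adjusted by Benjamini and Hochberg over 18193 genes, and a gene was called at an adjusted p under 0.05. Exact permutation tests were 2-sided, with a smallest possible p of 0.00794, 0.00216 and 0.00476 for 4 against 5, 5 against 6 and 4 against 6 arrays. The number of arrays limits the precision: the median SE of a log2 difference was 0.153 to 0.169. The fit was tested on simulated data.

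The ligands, 9 pathway lists and 11 cell type marker lists were chosen with earlier results of these data known. Besides all 10 ligands, up to 6 genes of a pathway list and 3 of a marker list with the smallest p could be named, and the 2 genes closest in profile to each ligand. Alternatives were other normalizations, filters, probe set rules, variance models, covariates, a replicate block, all 18 arrays and each array left out. Fits on the arrays of 2 groups alone and the exact permutation test at an unadjusted p under 0.05 were also among them.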

Additional observations from a re-analysis of the deposited data

Results flagged for a closer look

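Each ligand's values were searched within each group for a highest or lowest array that lay far from the rest (Dixon's test at the 95% level), and in 30 such groups chance alone marks about 1 in 20. Ereg in control 2, at 6.36, was marked: its gap to the next control took 0.78 of the range of the 5 controls, above the critical value of 0.71. Without control 2 the Ereg difference grew to 3.61 (limma adjusted p = 0.00693) in spontaneous and 4.25 (adjusted p = 0.000984) in treated tumors. Fgf7 in treated tumor 3, at 6.50, was marked as well, with a share of 0.629, just above the critical value for 6 arrays. Without treated tumor 3 the Fgf7 difference in treated tumors was -3.92 (limma adjusted p = 7.34e-09). The mean log2 signal of the macrophage markers was 10.37 in control 2 and 10.91 in control 6, against 8.21 to 8.71 in controls 1, 3 and 4. Ereg was 6.36 in control 2 and 4.01 in control 6. Sums of several other marker lists were also highest in these 2 controls, as given above. The part of any cell type in the Ereg values was not tested.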

How the results depend on the processing

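Of the single-ligand results under the alternatives, 849 kept their side of the threshold, 30 lost their call and 3 gained one. The threshold was an unadjusted p under 0.05 for the exact permutation test and an adjusted p under 0.05 for the rest. Only ligands called in the main fit, 6 in spontaneous, 7 in treated tumors and 0 between the tumors, could lose a call. The alternatives overlap, as 15 of them each leave out 1 array, so these counts are not a measure of robustness. In 18 of them the sign changed, always of a difference that was not called: 17 were between the 2 kinds of tumor (Egf, Nrg1, Hgf, Fgf7 or Igf1), and 1 was Hbegf in spontaneous tumors, -0.20 over 18 arrays. Over all 18 arrays, 1 and 4 ligands were called in spontaneous and treated tumors against control and 757 and 1350 of all genes, while 0 genes were called between the 2 kinds of tumor by limma, with 1161 at an unadjusted p under 0.05. Genes with a mean at or above the median, which keeps 4 of the 10 ligands (Hbegf, Btc, Hgf and Igf1), gave 1 ligand in each comparison with control (Hgf) and 4004 and 4658 genes. That filter also leaves fewer genes tested than 18193, so its gene counts cannot be set directly against those of the main fit. Testing every probe set singly gave 11007 and 13119 calls over all probe sets, and requiring a 2-fold difference gave 2421 and 2589 genes. With the mean of Y-linked genes as a covariate, 4344 genes were called in treated tumors against control. Nrg1 and Hgf were then not called in either comparison with control. That mean was 8.69 to 8.89 in control, 8.91 to 9.41 in spontaneous and 8.6 to 9.49 in treated arrays. It was above 7 on every array kept, and every control lay below every spontaneous tumor. The covariate thus partly follows the groups, so this fit cannot show whether the lost calls relate to sex, which was not tested. With the actin 3′ minus 5′ difference as a covariate Nrg1 was not called in spontaneous tumors (limma adjusted p = 0.0814). Taking the mean of its probe sets, Tgfa was called in spontaneous tumors (0.34, limma adjusted p = 0.028).

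Between the 2 kinds of tumor, 10 genes were called (6 higher and 4 lower in treated), against 5 (2 higher and 3 lower) with quantile normalization, 5 with a variance trend and robust variances, 37 with array weights over 18 arrays and 27 with the actin covariate. With the arrays of the 2 groups alone 0 were called by limma, with 1274 at an unadjusted p under 0.05. Leaving out each array in turn gave 4 to 6 ligands and 4993 to 6177 genes in spontaneous tumors, 6 to 7 ligands and 6083 to 7225 genes in treated tumors, and 0 to 28 genes between the tumors. With the replicate number as a block, 5 and 6 ligands were called in spontaneous and treated tumors, beside 5764 and 6417 of all genes. Hgf was lost in both (limma adjusted p = 0.07 and 0.0569). Between the tumors that fit called 0 genes by limma, with 1526 at an unadjusted p under 0.05. Same-numbered arrays did not deviate together: correlations of their deviations from the group means were -0.0795 to 0.184, -0.0695 to 0.0929 and -0.149 to 0.298 in the 3 comparisons, so the numbers were not read as pairs. The cause of these shifts was not tested.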

Other observations

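Of 15 measured genes that the ERK pathway is known to switch on, 12 were higher in spontaneous and 11 in treated tumors, and 0 were lower by limma in either, at an adjusted or an unadjusted p under 0.05, with median log2 differences of 1.16 and 1.36 against 0.12 and 0.089 over all genes. Dusp4, a phosphatase that acts on MAP kinases, was higher by 2.94 ± 0.20 SE (limma adjusted p = 1.53e-07) and 2.88 (adjusted p = 3.25e-08), and Etv4, an ETS transcription factor, by 2.16 and 2.23. Over all 18 arrays, 1 and 5 of the 15 were called, all higher. Of 14 immediate early genes, 3 were higher and 1 was lower in each comparison, with Junb at 1.02 and 0.95 and Jun at -1.43 and -1.50. Over 18 arrays limma called 0 of the 14 in spontaneous and 1, higher, in treated tumors, with 1 and 2 at an unadjusted p under 0.05.

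Markers of other cell types are given as counts called in spontaneous and treated tumors. Airway club and ciliated cell markers were lower for 6 and 8 of 8, alveolar type 1 cell markers for 6 and 6 of 9, and mesothelial markers for 2 and 2 of 6. T and NK cell markers were lower for 2 and 5 of 6, B and plasma cell markers for 3 and 4 of 5, and neutrophil markers for 1 and 1 of 4. Over 18 arrays these counts were 6 and 8 for club and ciliated, 1 and 2 for alveolar type 1, 2 and 2 for mesothelial, 0 and 3 for T and NK, 1 and 1 for B and plasma, and 0 and 0 for neutrophil markers by limma. Of the lists with a 0, T and NK markers had 1 and neutrophil markers 1 and 1 at an unadjusted p under 0.05.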
